A study of Mus musculus with 19 samples.

Results

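Ovaries lacking Ihh were compared directly with ovaries lacking Dhh on 7 of the 19 arrays of the series, the arrays labelled Ihh KO 1 to 3 and those labelled Dhh KO 1 to 4. Whole-ovary RNA of mice aged 2 months was hybridised to Affymetrix Mouse Genome 430 2.0 arrays, and all groups carry an ovary-specific deletion per the labels, which do not name a Cre driver. The controls, Ihh_Dhh_dhet, are double heterozygotes (8 arrays), and a further group, DKO, lacks both genes (3 arrays). The comparison asks how the ovary differs according to which of the Hedgehog ligands is missing. The hybridisation controls place both single knockouts in one set with controls 5 to 8, and DKO with controls 1 to 4 in another. In some genes, such as Cyp17a1 and Saa3, the 2 sets of controls resemble each other array by array. Cyp17a1 read 8765, 543, 74.1 and 5918 in controls 1 to 4 and 5927, 317, 117 and 5321 in controls 5 to 8. Saa3 read 485, 2551, 204 and 42.9 in the former and 386, 1839, 188 and 61.2 in the latter. Gli1 did not follow this, at 93.9, 144, 93.2 and 157 in controls 1 to 4 and 38.9, 107, 53.0 and 41.5 in controls 5 to 8. Whether the 2 sets are the same samples hybridised again was not tested. The 7 arrays were chosen by their labels, their hybridisation set and their Dhh signal: the fourth array labelled Ihh KO has a Dhh signal that goes against its label, and was kept out of the test and placed afterwards. Nothing in the labels says whether arrays of a group are separate animals, so p-values measure the spread between these samples, which may be technical.

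Desert hedgehog (Dhh) and Indian hedgehog (Ihh) are secreted ligands made by the granulosa cells of growing follicles. They bind the receptor Ptch1 on neighbouring stromal and theca cells, which frees Smo to switch on the Gli transcription factors. Gli1, Ptch1 and Hhip are induced by the signal, and the last of them, a membrane protein that binds the ligands, limits it in turn, as Ptch1 does.

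Every array had the same trimmed mean signal of 500 units, and the median signal of the 7 arrays lay between 105 and 153. The 3' signal of the Gapdh control over its 5' signal, a ratio that grows as RNA is degraded or amplified unevenly, was 2.52 ± 0.311 (SD, n = 4) for Dhh KO arrays and 2.06 ± 0.262 (n = 3) for Ihh KO arrays. An exact two-sided permutation test over the 35 splits of the 7 arrays gave p = 0.114. Over all 45035 probe sets tested, the median log2 difference was -0.09 (Ihh KO minus Dhh KO). It was 0.09 after centring each array on its median and -0.01 after quantile normalization, so small differences depend on the scale.

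The targeted genes were read first. The stronger Dhh probe set gave signals of 13.2, 5.14, 18.8 and 25.4 in Dhh KO 1 to 4, and 709, 527 and 636 in Ihh KO 1 to 3. These values served to choose the arrays and carry no test. The array labelled Ihh KO 4 gave 2.96, below every Dhh KO array, whereas controls 5 to 8 ranged from 621 to 1085. A weaker Dhh probe set, with signals from 7.84 to 63.5 in Dhh KO and from 41.9 to 68.1 in Ihh KO 1 to 3, overlapped between the groups. Whether either probe set lies in the deleted part of the gene is not given in the sources used here.

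Ihh was low in the group that lacks it. Its single probe set read 145, 108, 168 and 139 in Dhh KO and 12.5, 35.1 and 43.5 in Ihh KO 1 to 3. The highest Ihh KO value lay well under the lowest Dhh KO value, and the log2 difference was -2.07 (SE 0.35; limma, adjusted p = 0.117). In controls 5 to 8 it ranged from 160 to 238, and of the 7 arrays only Dhh KO 3 reached that range. The array labelled Ihh KO 4 read 108, the same as Dhh KO 2 to the nearest unit. The Ihh signal of that array also lies at the level of the Dhh KO arrays.

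**Figure D1:**
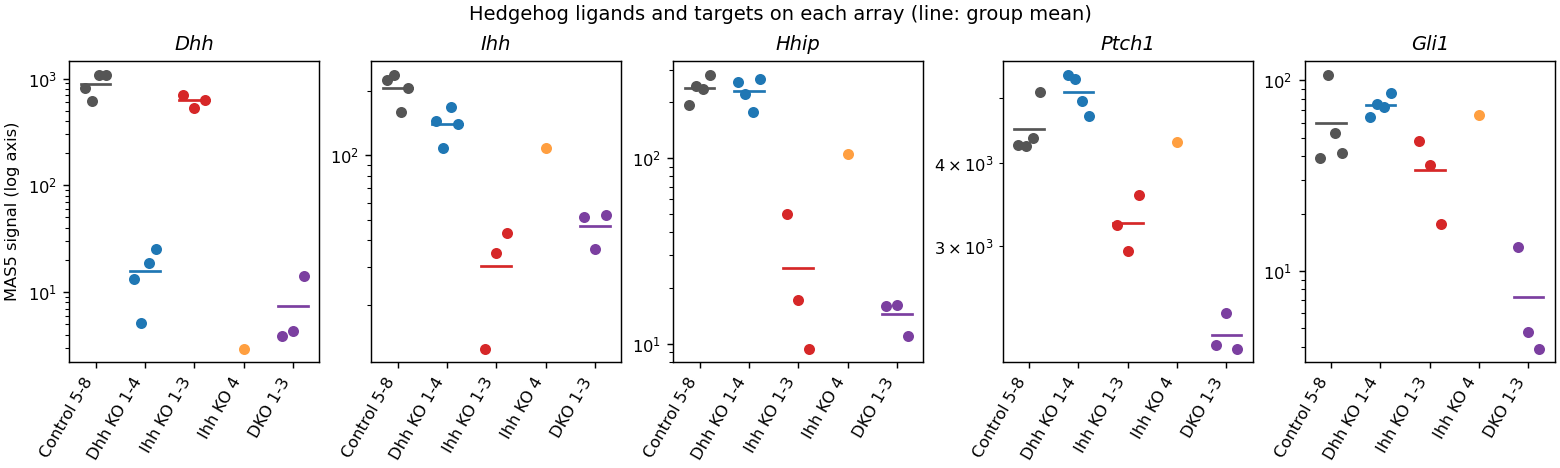
MAS5 signal (log axis) of Dhh, Ihh, Hhip, Ptch1 and Gli1 on each array of controls 5 to 8, both single knockouts and DKO, with group means as lines and 1 probe set a gene. For Hhip the 3 Ihh KO arrays lie between 9.43 and 49.9 and the 4 Dhh KO arrays between 178 and 265, while the array labelled Ihh KO 4 (105) lies between them. DKO was hybridised in the other set.

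The Hedgehog target genes were lower where Ihh was missing than where Dhh was missing, in every array and with every probe set measured. The largest difference was in Hhip. Its brightest probe set gave 256, 220, 178 and 265 in Dhh KO and 49.9, 17.1 and 9.43 in Ihh KO 1 to 3. The groups do not overlap, and the log2 difference was -3.05 (SE 0.40; limma, adjusted p = 0.0635), which misses the threshold of 0.05. Controls 5 to 8 ranged from 192 to 281 and so overlapped the Dhh KO arrays but none of the Ihh KO arrays. In the other 3 Hhip probe sets the groups did not overlap either, with log2 differences of -2.83, -2.22 and -1.85. Over all probe sets, 8.24% had no overlap with Ihh KO lower and 3.72% with Ihh KO higher. Taking 1 probe set a gene, 7.81% of genes had no overlap with Ihh KO lower.

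Ptch1, the receptor, had smaller differences than Hhip. Its brightest probe set gave 5421, 5338, 4959 and 4704 in Dhh KO and 3226, 2950 and 3582 in Ihh KO, a log2 difference of -0.65 (SE 0.10; limma, adjusted p = 0.0732). The controls of the set lay between 4236 and 5104, above each Ihh KO array. Its other probe sets, dimmer, also separated the groups, at -1.50 and -0.50, but their controls lay elsewhere. In the first of them controls 5 to 8 read 43.0 to 67.6, below every Dhh KO array (122 to 154) and within the Ihh KO range (25.9 to 70.5). In the second the controls, at 219.9 to 237, lay above both groups. Gli1, the transcription factor that reports the signal, read 64.1, 75.5, 72.9 and 86.2 in Dhh KO and 48.1, 36.0 and 17.7 in Ihh KO. These do not overlap, but controls 5 to 8 ranged from 38.9 to 107 and overlapped both groups. The log2 difference of Gli1 was -1.07 (SE 0.32; limma, adjusted p = 0.305).

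None of the Hedgehog genes passed the threshold of 0.05 in the test of the 7 arrays alone. Controls 5 to 8 in the same fit add arrays to the estimate of the spread. In the brightest probe sets the adjusted p (limma) was then 0.00863 for Hhip and 0.0425 for Ptch1. In the others it was 0.00845, 0.0765 and 0.0931 for Hhip, and 0.17 and 0.353 for Ptch1. With the array labelled Ihh KO 4 kept in its labelled group, the brightest probe sets gave log2 differences of -2.55 (Hhip) and -0.55 (Ptch1). Their adjusted p (limma) was 0.463 and 0.467. In bulk tissue, fewer cells that express a gene and less RNA per cell cannot be told apart.

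The 250 bases before the transcription start of Hhip and Ptch1 are shown. Both genes were lower in Ihh KO than in Dhh KO, and Gli factors induce both. The sequences are from RefSeq (GRCm38.p6), given 5′ to 3′ on the minus strand. GC boxes (GGGCGG, either strand) are in capitals. Hhip spans chr8:80058009-80058258 and Ptch1 chr13:63565736-63565985.
Hhip: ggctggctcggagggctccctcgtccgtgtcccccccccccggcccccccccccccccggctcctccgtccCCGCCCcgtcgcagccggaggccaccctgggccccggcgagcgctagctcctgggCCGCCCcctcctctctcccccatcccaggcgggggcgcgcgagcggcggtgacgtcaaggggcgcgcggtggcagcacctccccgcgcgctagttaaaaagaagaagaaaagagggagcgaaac
Ptch1: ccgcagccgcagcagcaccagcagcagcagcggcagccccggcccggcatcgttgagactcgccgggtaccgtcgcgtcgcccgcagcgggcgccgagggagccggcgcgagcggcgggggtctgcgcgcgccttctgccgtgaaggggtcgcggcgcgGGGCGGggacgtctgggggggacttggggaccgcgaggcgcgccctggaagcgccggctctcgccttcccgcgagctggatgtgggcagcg
The GC box occurs in 32.7% of the 32851 such windows, with 2 in that of Hhip and 1 in that of Ptch1. The Gli consensus GACCACCCA, searched on both strands, occurs in 0.225% of all windows and in neither of these. Of the 28 genes described by the naming rule, 21 have a window in the table and 0 of those hold it. A match is a description, and no match says only that these letters are not in the window.

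Few of the genes that release, receive or transduce the ligands passed even an unadjusted p under 0.05. Of 13 measured genes of reception and transduction, 1 was higher in Ihh KO and 0 lower at an unadjusted p under 0.05, with a median log2 difference of 0.00. At that level 5.49% of all 18192 genes (1 probe set a gene) were higher and 7.33% lower, with a median of -0.04. Smo, the signal transducer, read from 2749.7 to 3148 in Dhh KO and from 2935 to 3795 in Ihh KO, so the groups overlap. The gene past that level was Prkaca, the catalytic subunit of protein kinase A, which restrains the pathway. It read 1623, 1759.9, 1651 and 732 in Dhh KO and 2345, 2721 and 2603 in Ihh KO (log2 difference 0.90, SE 0.27; limma, adjusted p = 0.305). Of its 2 probe sets, only this 1 was without overlap, and the other gave 0.25. Of 8 measured genes for ligands and their release, Ihh itself was the 1 past that level. Shh, the third ligand of the family, was dim in both groups and overlapped between them, at 11.6 to 70.9 in Dhh KO and 26.5 to 70.6 in Ihh KO.

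Over all 45035 probe sets, 9 passed the threshold (limma, adjusted p under 0.05; 0.0200%): 3 rose in Ihh KO relative to Dhh KO (0.00666%) and 6 fell (0.0133%). At an unadjusted p under 0.05 there were 5891 (13.1%), 1998 of them higher (4.44%) and 3893 lower (8.64%). Of the 9, 5 carry a single named gene: Fcer1a, Tlcd4 and Ptgfr rose, and Smpx and Dtx4 fell. The calls changed with the setting. With median centring 7 rose and 3 fell, 5 of them among the 9, and after quantile normalization 1 rose and 1 fell. With the array labelled Ihh KO 4 kept in its labelled group 0 passed, at 4199 probe sets with unadjusted p under 0.05. Without any one of Dhh KO 1 to 4 or Ihh KO 2, limma also called 0 (3821 to 6530 with unadjusted p under 0.05), and without Ihh KO 1 it called 5, whereas without Ihh KO 3 it called 32. With the Gapdh ratio as a covariate 0 were called. The differences of the 50 probe sets named by rule kept their sign under each of these settings. Most of them were picked without overlap between the groups, where leaving out an array cannot change the sign.

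Fcer1a, a subunit of the IgE receptor of mast cells and basophils, was at the floor of the scale in Dhh KO. It read 1.87, 1.61, 1.79 and 1.72 there and 60.6, 155 and 50.1 in Ihh KO. The log2 difference of 3.29 (SE 0.37; limma, adjusted p = 0.0375) depends on the 7.02 units added before the log, and was 1.82 (limma, adjusted p = 0.0854) with 29.4 units. Its signal in controls 5 to 8 was 1.06 to 22.7, below all Ihh KO arrays. Tlcd4, a membrane protein with a TLC domain, read 148, 216, 95.0 and 90.5 in Dhh KO and 687, 1843 and 1642 in Ihh KO. It rose, with a log2 difference of 3.24 (SE 0.38; limma, adjusted p = 0.0427), and 3 of its 4 probe sets did not overlap. Its signal in controls 5 to 8 spread from 39.1 to 484, on both sides of the Dhh KO arrays and below every Ihh KO array.

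Ptgfr encodes the prostaglandin F receptor through which the corpus luteum is brought to regress. Its called probe set read 75.8, 85.7, 69.5 and 78.8 in Dhh KO and 242, 426 and 461 in Ihh KO, a rise with a log2 difference of 2.13 (SE 0.25; limma, adjusted p = 0.0427). The 5 Ptgfr probe sets each separated the groups, with log2 differences from 1.32 to 2.13. Controls 5 to 8 spread from 26.7 to 232 in the called probe set, on both sides of the Dhh KO arrays and below every Ihh KO array. The level of this gene varied among the controls as well as between the groups compared.

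Smpx, a small muscle protein, had the larger fall of the called named genes. It read 640, 396, 485 and 439 in Dhh KO and 76.3, 61.7 and 132 in Ihh KO, and fell, with a log2 difference of -2.40 (SE 0.27; limma, adjusted p = 0.0375). In the controls of the set it was 440.4 to 543, within the Dhh KO range. Dtx4, an E3 ubiquitin ligase of the Deltex family linked to Notch signalling, read 837, 957, 911 and 946 in Dhh KO and 414, 464 and 452 in Ihh KO. It fell, with a log2 difference of -1.03 (SE 0.11; limma, adjusted p = 0.0375), with both of its probe sets free of overlap. The same controls spread from 645 to 1313, above the Ihh KO arrays and on either side of the Dhh KO arrays. The other 4 called probe sets have no single gene listed and fell by 1.57 to 2.72, from means of 97.8 to 1017 in Dhh KO to means of 15.1 to 316 in Ihh KO.

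**Figure D2:**
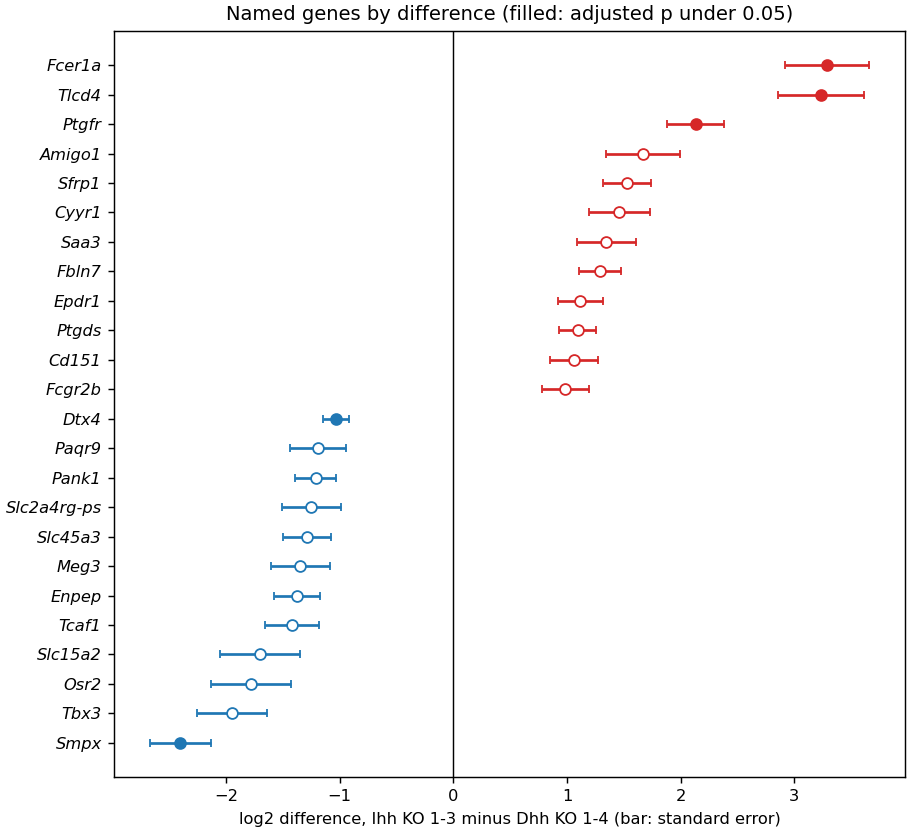
Log2 difference, Ihh KO 1 to 3 minus Dhh KO 1 to 4, of 24 named genes with standard errors. Filled points passed the threshold (Fcer1a, Tlcd4, Ptgfr, Smpx and Dtx4) and open points did not; the latter were picked for size, which runs from 0.99 for Fcgr2b to 1.67 for Amigo1 and from -1.95 for Tbx3 to -1.19 for Paqr9.

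Too few genes were called to fill the naming rule, so the largest differences without overlap among brighter probe sets with an unadjusted p under 0.001 were added as values only. They were picked for their size, and none passed the adjusted threshold. On the lower side Tbx3 and Osr2 lead, both transcription factors of mesenchyme. Tbx3 read 1717, 850, 1440 and 1165 in Dhh KO and 270.0, 223 and 537 in Ihh KO (log2 difference -1.95, SE 0.31; limma, adjusted p = 0.0891). The groups were apart in all 5 of its probe sets. Osr2 read 898, 617, 969 and 739 in Dhh KO and 176, 138 and 469 in Ihh KO (-1.78, SE 0.35; limma, adjusted p = 0.179), and was apart in both of its probe sets. Controls 5 to 8 overlapped the Dhh KO arrays for Tbx3 (743 to 1973) and Osr2 (665 to 935), and lay above every Ihh KO array.

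The other 8 genes added on the lower side had log2 differences from -1.70 to -1.19. Enpep, a membrane aminopeptidase that cleaves angiotensin II, was the tightest of them in Dhh KO. It read 1042, 992, 937 and 1015 there and 307, 317 and 562 in Ihh KO (-1.37, SE 0.20; limma, adjusted p = 0.0732). Pank1, a pantothenate kinase of coenzyme A synthesis, averaged 1299 ± 270 (SD, n = 4) against 553 ± 82.6 (n = 3), but its other 3 probe sets overlapped, at -0.26 to -0.37. Meg3, an imprinted non-coding RNA, averaged 570 ± 77.4 against 234 ± 111 in the probe set with the largest difference of its 11, and 2 of the 11 did not overlap. Slc15a2, a peptide transporter, was lower in 1 of its 3 probe sets only, and the others gave 0.02 and 0.50 with overlap. Tcaf1 was without overlap in 1 of 5 probe sets, with differences from -1.42 to -0.68. Slc45a3 and Paqr9 were apart in both of their probe sets, and Slc2a4rg-ps has 1.

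On the higher side the 9 genes added had log2 differences from 0.99 to 1.67. Sfrp1, a secreted Wnt antagonist, read 199.9, 183, 127 and 143 in Dhh KO and 587, 434 and 424 in Ihh KO (1.53, SE 0.21; limma, adjusted p = 0.0635), and 4 of its 5 probe sets did not overlap. Controls 5 to 8 ranged from 88.9 to 451 and overlapped both groups. Fbln7, a matrix glycoprotein, read 249.9, 226, 178 and 239 in Dhh KO and 587, 447 and 644 in Ihh KO (1.29, SE 0.18; limma, adjusted p = 0.0732). Ptgds, the prostaglandin D synthase, averaged 330 ± 48.2 (SD, n = 4) against 712 ± 107 (n = 3). Epdr1 averaged 1650 ± 486 against 3515 ± 566, and Fcgr2b, an inhibitory Fc receptor, 179 ± 36.5 against 360 ± 63.0. Amigo1, Cyyr1, Cd151 and the acute phase gene Saa3 complete the group. Overlap was absent in 3 of 5 probe sets of Amigo1, 3 of 6 of Cd151, 2 of 5 of Fcgr2b and every probe set of Cyyr1, Epdr1, Ptgds, Fbln7 and Saa3. Saa3 ranged from 61.2 to 1839 over controls 5 to 8, beyond both knockout groups at either end.

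Lists of genes known for ovarian cell types were read by the level of each gene's brightest probe set. Of all 18192 genes read so, 5.49% were higher and 7.33% lower at an unadjusted p under 0.05, shares that apply to every list below. Mast cell genes were higher in Ihh KO for all 7 measured members, 5 of them at an unadjusted p under 0.05 (5.49% of all genes), with a median log2 difference of 1.81. Of all genes, 4.50% did not overlap with Ihh KO higher, and of the mast cell genes 5 of 7. Cpa3, the mast cell carboxypeptidase, read 4.30, 36.0, 20.02 and 5.28 in Dhh KO and 241, 347 and 163 in Ihh KO (3.62, SE 0.49; limma, adjusted p = 0.0635). Cma1, a chymase, read 78.1, 87.8, 65.0 and 81.7 in Dhh KO and 434, 524 and 198 in Ihh KO (2.10, SE 0.31; limma, adjusted p = 0.0732). The other 3 without overlap were Mcpt4, Tpsab1 and Ms4a2, which are dim, and only 1 of the 2 Ms4a2 probe sets was without overlap. Of the 7 members, 5 lay below the median signal. Cpa3 is dim in Dhh KO too, where 4.30 and 5.28 lie under the 7.02 units added before the log. Its log2 difference ran from 2.61 to 4.40 under other settings. Per array the list's median level, relative to the mean of controls 5 to 8, was 2.15, 1.11 and 0.29 in Ihh KO 1 to 3 and between -0.49 and -0.03 in Dhh KO. Controls spread from -0.72 to 0.51, over the lowest Ihh KO array, and the array labelled Ihh KO 4 lay at -0.03.

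Macrophage genes were higher in Ihh KO for all 12 measured members, 7 of them at an unadjusted p under 0.05 (5.49% of all genes), by a median of 0.54. C1qb, a chain of complement C1q, read 3575, 3528, 3382 and 2943 in Dhh KO and 3651, 5639 and 7467 in Ihh KO (0.68, SE 0.20; limma, adjusted p = 0.305). Ihh KO 1 stands close to the Dhh KO arrays in the list as in this gene. The list's median level was -0.23 in Ihh KO 1 but 0.52 and 0.37 in Ihh KO 2 and 3, between -0.28 and -0.19 in Dhh KO, and from -0.38 to 0.42 in controls 5 to 8. The part of infiltrating cells in the differences of Fcer1a and Fcgr2b was not tested.

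**Figure D3:**
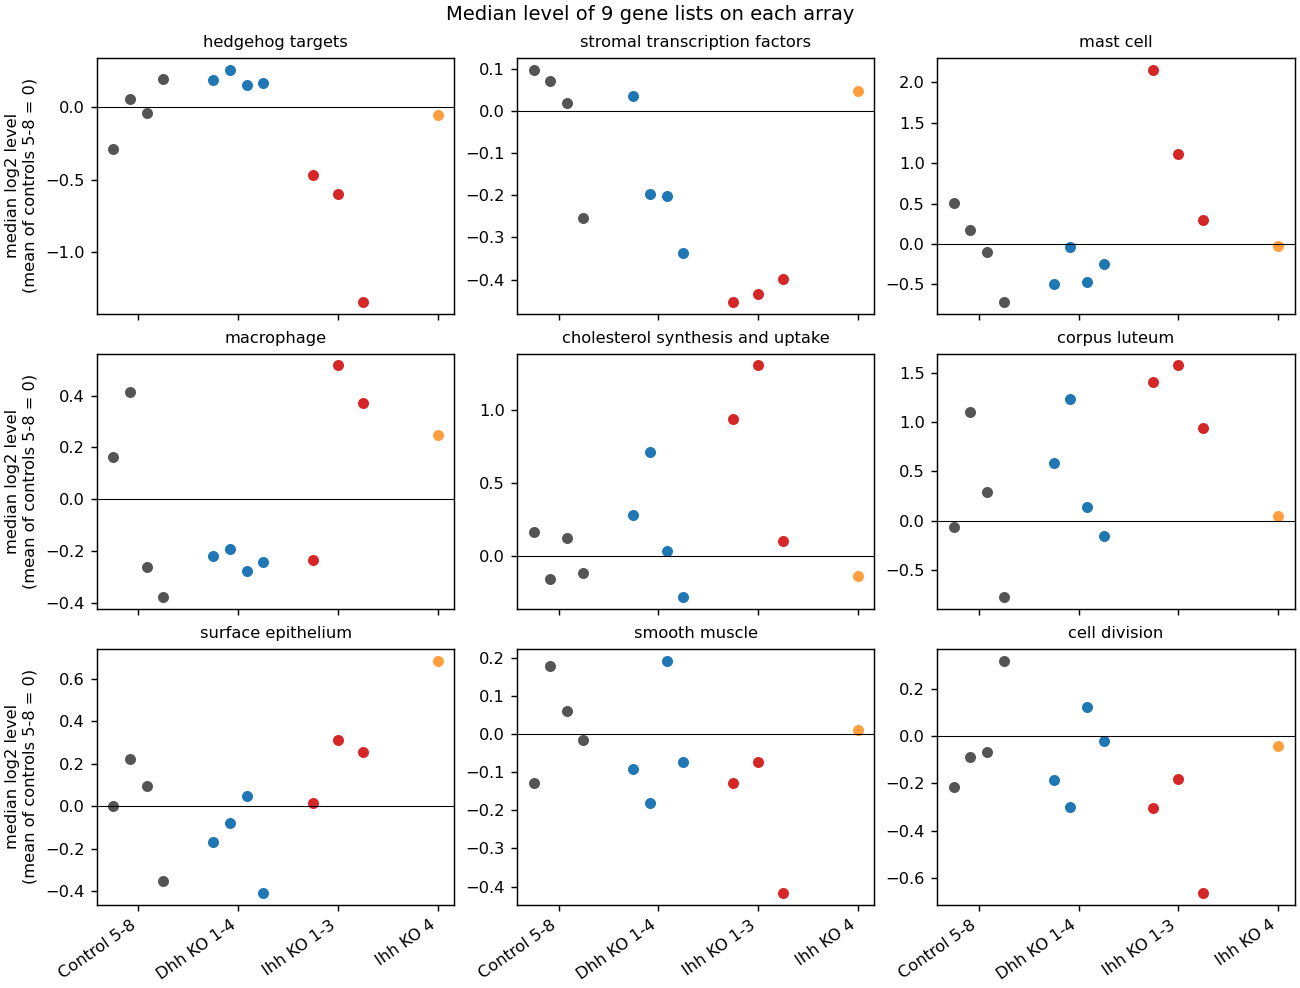
Median log2 level of 9 gene lists on each array, relative to the mean of controls 5 to 8 (0), for those controls, both single knockouts and the array labelled Ihh KO 4. The Ihh KO arrays lie apart from the Dhh KO arrays for Hedgehog targets, mast cell and stromal transcription factor medians, and overlap them for macrophage, cholesterol, corpus luteum, surface epithelium, smooth muscle and cell division medians.

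The cholesterol synthesis and uptake list was higher in Ihh KO for 18 of 20 measured members, by a median of 0.63. At an unadjusted p under 0.05, 6 of the 20 were higher (5.49% of all genes). The arrays of each group differ widely. The list stood at 0.94 and 1.31 in Ihh KO 1 and 2 but at 0.10 in Ihh KO 3, within the Dhh KO range of -0.29 to 0.71. Its median was 1.00 without Ihh KO 3 and 0.35 without Ihh KO 2. Ebp, a sterol isomerase, was the member with the smallest p, at 389, 570, 525 and 456 in Dhh KO and 918, 1026 and 704 in Ihh KO (0.85, SE 0.17; limma, adjusted p = 0.193).

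Star, which carries cholesterol into the mitochondrion for steroid synthesis, read 3886, 5706, 5771 and 4648 in Dhh KO and 8115, 10792 and 6827 in Ihh KO (0.77, SE 0.18; limma, adjusted p = 0.233). These do not overlap, though controls 5 to 8 reached from 4398 to 7145. Scarb1, the receptor for HDL cholesterol, was the other of the 9 measured theca and steroid genes at an unadjusted p under 0.05, and the list's median was 0.08. Cyp17a1, the androgen-making enzyme of theca cells, ranged from 144 to 7344 in Dhh KO and from 176 to 2938 in Ihh KO, so its levels spread more within than between the groups.

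Among 7 measured corpus luteum genes 6 were higher, 3 of them at an unadjusted p under 0.05 (5.49% of all genes), with a median of 0.52. Akr1c18, which inactivates progesterone, read 1236, 1949, 658 and 4287 in Dhh KO and 4083, 7506 and 9825 in Ihh KO (2.05, SE 0.53; limma, adjusted p = 0.268). Dhh KO 4 reached into the range of Ihh KO. Sfrp4 and the brightest Ptgfr probe set were the others, without overlap. The list's level ran from -0.78 to 1.10 in controls 5 to 8, from -0.16 to 1.24 in Dhh KO and from 0.94 to 1.58 in Ihh KO, so the controls spread as widely as the knockouts. The stage of the oestrous cycle is not given in the labels, and its part in these differences was not tested.

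Other lists were read the same way. Surface epithelium genes were higher for 11 of 12 members, by a median of 0.37. At an unadjusted p under 0.05, 5 were higher (5.49% of all genes) and 1 lower (7.33% of all genes). Their leading member Lgr5, a receptor of the ovarian surface linked to Wnt signalling, read from 255 to 536 in Dhh KO and 529, 961 and 1418 in Ihh KO, and so overlapped. Immediate early genes were higher for 12 of 12, 3 at an unadjusted p under 0.05, by 0.51, where 43.7% of all genes were above 0. Their median level overlapped between the groups, with 0.24, 0.26 and 0.84 in Ihh KO 1 to 3 and -0.38 to 0.58 in Dhh KO. Cell division genes were lower for 14 of 14, where 56.3% of all genes were below 0. At an unadjusted p under 0.05, 4 of them were lower (7.33% of all genes). Their median of -0.24 was -0.06 after median centring and -0.09 without Ihh KO 3. Mki67, a marker of dividing cells, read 4801, 4276, 5817 and 5636 in Dhh KO and 4059.6, 4219.8 and 3156 in Ihh KO, without overlap (-0.43, SE 0.14; limma, adjusted p = 0.312).

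Smooth muscle genes had a median of -0.20, or -0.01 after median centring, and 3 of 15 were lower at an unadjusted p under 0.05 (Myh11, Actg2 and Tpm2), against 0 higher. Of all genes, 7.33% were lower and 5.49% higher at that level. Myh11, the smooth muscle myosin heavy chain, read 2479, 2707, 3963 and 2707 in Dhh KO and 2171, 2325 and 1409.5 in Ihh KO, without overlap (-0.60, SE 0.20; limma, adjusted p = 0.324). Granulosa genes gave 0 of 14 and oocyte genes 0 of 13 at an unadjusted p under 0.05. Their medians were -0.15 and -0.21; the first was 0.03 and the second -0.02 after median centring. Stromal transcription factors gave 2 of 13 higher (Nr2f1 and Wt1) and 2 lower (Tbx3 and Osr2), with a median of -0.15 that was 0.04 after median centring and 0.07 after quantile normalization.

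Markers of cells that lie around or within the ovary were counted too, at an unadjusted p under 0.05. Of all genes, 5.49% were higher and 7.33% lower at that level, so a single member of such short lists says little. Among endothelial genes 0 of 13 were higher and 1 lower, among fibroblast and matrix genes 2 of 10 higher and 0 lower, and among oviduct genes 1 of 10 higher and 1 lower. Adipocyte genes gave 0 of 7 in either direction, and red blood cell genes 0 of 3 higher and 1 lower. Vwf, a clotting protein of endothelial cells, was the endothelial member, at 199, 232, 202 and 217 in Dhh KO and 105, 113 and 142 in Ihh KO, without overlap (-0.80, SE 0.19; limma, adjusted p = 0.243). It lay between 137 and 259.9 in controls 5 to 8, which overlapped both groups. The median of the endothelial list was 0.07, so Vwf did not go with the rest of its list.

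Probe sets that are low when both ligands are missing offer a view from arrays that the comparison does not use. Between DKO 1 to 3 and controls 1 to 4, which share no array with the 7, 53 probe sets were lower (limma, adjusted p under 0.05; 0.118% of all) and 20 higher (0.0444%). Of those 53, 49 were lower in Ihh KO than in Dhh KO, as were 62.1% of all probe sets. At an unadjusted p under 0.05, 26 of the 53 (49.1%) were lower in Ihh KO, against 8.64% of all, and 0 were higher. The median log2 difference of the 53 was -0.57. Of the 20 that were higher in DKO, 12 were above 0 in Ihh KO minus Dhh KO and 1 was higher at an unadjusted p under 0.05, with a median of 0.05.

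The genes at the top of that group include the Hedgehog targets and the mesenchymal factors. Atp2b3, a calcium pump, had the largest difference in DKO (-4.64 on the log2 scale) and a difference of -2.92 between Ihh KO and Dhh KO. Hhip gave -3.02 in DKO and -3.05 between the single knockouts. Gli1 was lower by more in DKO (-3.19) than between the single knockouts (-1.07), as were Osr2 (-3.55 and -1.78) and Tbx3 (-3.13 and -1.95). Smpx went the other way, at -1.76 and -2.40. Lamc3, a laminin chain, gave -3.03 and -0.66, but its arrays overlapped between the single knockouts. For other genes low in DKO the second value was near 0: Slc47a1 gave -2.55 and -0.11, and Nr2f2, a nuclear receptor of ovarian stroma, gave -0.78 and -0.17. Whether such pairs of values differ was not tested.

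**Figure D4:**
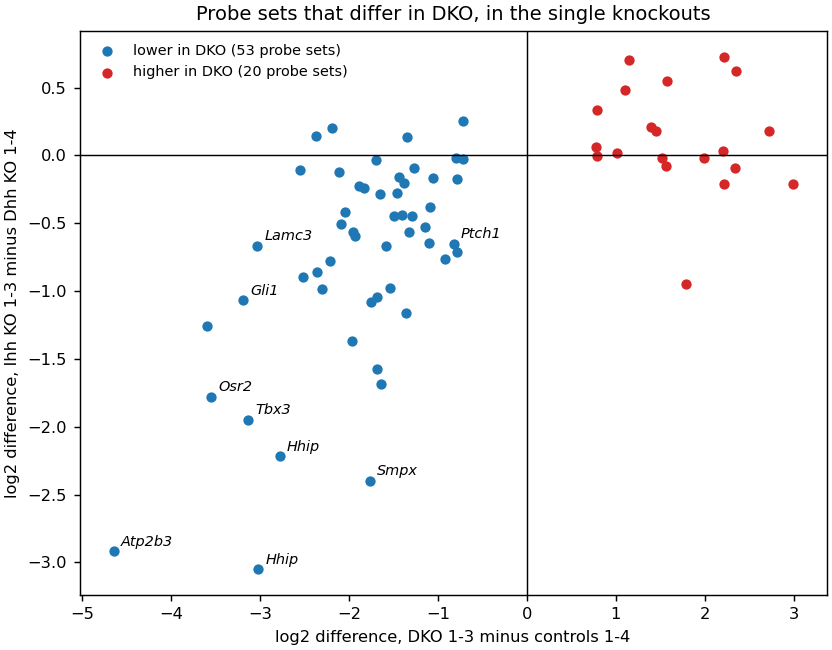
Log2 difference of DKO 1 to 3 minus controls 1 to 4 (x) and of Ihh KO 1 to 3 minus Dhh KO 1 to 4 (y) for 53 probe sets lower and 20 higher in DKO at an adjusted p under 0.05. Of the 53, 49 lie below 0 on the y axis, and the 20 lie on both sides of it.

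The array labelled Ihh KO 4 was placed for each probe set on a line from the Dhh KO mean (0) to the Ihh KO mean (1). It lay nearer Dhh KO for 9 of the 9 called probe sets (median place -0.05) and for 21 of the 24 named genes (median -0.16). Among the 211 probe sets with an unadjusted p under 0.001 (0.469% of all) it lay nearer Dhh KO for 163 (median 0.13). The exceptions among the named genes were Amigo1 (0.53), Enpep (0.53) and Slc15a2 (0.87). For Smpx it read 811, above every Dhh KO array, and for Tlcd4 137, amid them. For Hhip and Ptch1 it lay between the groups, at 0.35 and 0.38 in the brightest probe sets.

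The mean of controls 5 to 8 also lay nearer Dhh KO, for 24 of the 24 named genes (median place 0.05) and 182 of the 211 probe sets. All 4 of these controls lay on the Dhh KO side of every Ihh KO array for 18 of the 24 genes, and they were apart from the Dhh KO arrays for 1. The place of an array near 0 is thus shared by controls and Dhh KO, and for these genes does not separate the 2 genotypes. A list of 14 genes that changed against controls in Dhh KO in an earlier analysis had a median level of -0.64 to -0.36 in Dhh KO. It was -0.02 to 0.06 in controls 5 to 8 and -0.08 to 0.04 in Ihh KO 1 to 3. The array labelled Ihh KO 4 lay at -0.05, outside the Dhh KO range. That list was chosen for its difference in Dhh KO, which fixes the place of the Dhh KO arrays. The Dhh signal of the array labelled Ihh KO 4 was what kept it out of the test, and it is no further evidence of its genotype. These 24 genes were chosen for their difference between the groups, so that the 2 ends of the line are fixed by the choice.

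**Figure D5:**
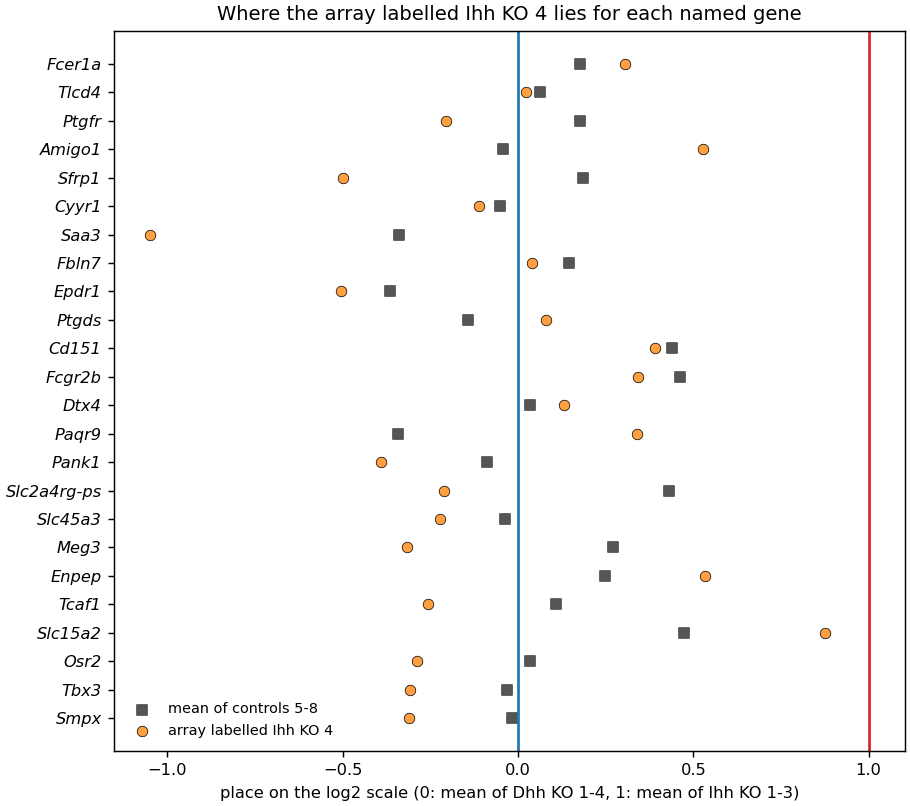
Place of the array labelled Ihh KO 4 (circles) and of the mean of controls 5 to 8 (squares) on the log2 scale for 24 named genes, where 0 is the mean of Dhh KO 1 to 4 and 1 the mean of Ihh KO 1 to 3. The circle lies nearer 0 for 21 genes and the square for 24.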

How the data were processed

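The values deposited by the authors are intensities on a linear scale, named MAS5 in the submitters' processing notes, with each array's trimmed mean at 500 as read from the values. Per the labels' protocols, a PicoPure kit gave the RNA, which the WT-Ovation Pico system amplified before biotin labelling. The numbers of arrays, 3 against 4, limit the precision.

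A pseudocount of 7.02 (the 10th percentile of all signals) was added before log2, and no further normalization was applied; it makes fold changes of dim probe sets smaller. limma 3.58.1 in R 4.3.3 (lmFit, eBayes with an intensity trend, two-sided, 5 residual degrees of freedom) was fitted to 45035 probe sets, leaving out 64 Affymetrix controls and 2 Dhh probe sets, with Benjamini-Hochberg adjustment and a threshold of 0.05. On simulated data of this size the fit called 22 of 50 probe sets changed by 1 on the log2 scale and 42 of 50 changed by 2, with 2 false calls. The simulated noise was independent between probe sets, without shifts shared across an array, and the changes were placed above the 40th percentile of signal. These rates may not hold for the real arrays. Symbols came from the probe annotation (34945 probe sets with 1 gene, 932 with several, 9160 with none listed outside the controls). By Entrez identifier, 34741 matched RefSeq of GRCm38.p6, and 0 symbols changed.

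Genes named were Ihh and the Hedgehog targets, then up to 12 called genes without overlap in each direction (Rik, Gm and clone numbers skipped), filled by size as values only, called members of lists and, for other cell type lists, the member with the smallest p. Genes named beside these, from lists or from DKO, were chosen after their values were seen. The members and lists were chosen with earlier results of these data known. Replicate numbers shared by the groups did not pair the arrays (r of deviations -0.01, -0.14 and -0.11, across probe sets). Alternatives were other normalizations, pseudocounts, filters, arrays in the fit, moderation, array weights, a replicate block, a Gapdh covariate and leaving out each array. Figures were drawn with matplotlib 3.10.9 in Python 3.11.15.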

Additional observations from a re-analysis of the deposited data

Results flagged for a closer look

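In 102 groups of 4 arrays of the named probe sets, 4 arrays stood apart from the other 3 of their group by the gap to the nearest, and chance gives about 1 in 20. Control 8 read 5104 for Ptch1, where the other controls of its set read 4236 to 4351. Control 6 read 7103 for Inhbb, an inhibin subunit of granulosa cells (the others 8100.4 to 8317), and 1999 for Mfap4, a microfibril protein (the others 1116 to 1193). Dhh KO 1 read 1141 for the oocyte gene Dppa3, where the other Dhh KO arrays read 1380 to 1404. Of these arrays only Dhh KO 1 is among the 7 compared.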

How the results depend on the processing

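The count of called probe sets, 9, was 9 with a 2-fold threshold, 7 with a filter at the 40th percentile, 10 with median centring or a pseudocount of 29.4, and 13 with robust moderation. It was 2 after quantile normalization and 2 without a pseudocount, 4 with 1 probe set a gene, 4 without a trend, 14 with controls 5 to 8 added, 16 with all arrays except the one labelled Ihh KO 4, and 825 with array weights. It was 0 with a filter at the 60th percentile, 0 with the array labelled Ihh KO 4 kept, 0 with the Gapdh covariate and 0 with the replicate block, where limma gave 2861, 4199, 8912 and 3239 probe sets at an unadjusted p under 0.05. Leaving out 1 array gave 0 to 32. With controls 5 to 8 added, 5 of the 14 were among the 9. With all arrays except the one labelled Ihh KO 4, 4 of the 16 were. The 9 called probe sets gave 185 values under alternatives, of which 64 stayed past the threshold and 121 did not. None of 1051 values of 50 named probe sets changed sign. Most of these probe sets were picked without overlap, where leaving out an array or another pseudocount cannot change the sign. Filters and moderation leave the difference as it is, so the unchanged signs are no test of the differences. The adjusted p (limma) of the brightest Hhip probe set ranged from 0.00184 to 0.463. That of the brightest Ptch1 probe set ranged from 0.0066 to 0.467. In the other probe sets it reached 0.602 for Hhip and 0.702 for Ptch1. The lowest for Hhip came from the fit of all arrays except the one labelled Ihh KO 4. That fit counts controls 1 to 4 and controls 5 to 8 as separate samples. Of 626 list medians under alternatives, 48 moved by more than the spread between replicates. Dim probe sets near the 7.02 units added have differences set partly by that value.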
